A study of Mus musculus with 2 samples.

Results

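The 6 miRNA genes Mir142, Mir223, Mir150, Mir155, Mir146 and Mir146b, known as markers or regulators of white blood cells, were followed in the neonatal mouse heart. They were chosen by symbol from the 2202 miRNA genes in the deposited tables, and each symbol matched 1 gene. MicroRNA sequencing libraries came from heart tissue of 2 male B6CASTF1/J mice aged 4 days, the first-generation cross of C57BL/6J and CAST/EiJ, with no treatment named in the labels. The animals carry the numbers 3 (replicate 1) and 4 (replicate 2) but the same donor identifier, so if they were not separate animals the spread between the libraries is technical. There is a single group, and nothing in the labels compares conditions. Values are sense counts, which are reads on the gene's own strand, or CPM, which are sense counts scaled to one common library total. Errors given as ± are SDs over the 2 libraries (n = 2).

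A miRNA is cut from a hairpin transcript, and its seed, bases 2 to 8 of the mature strand, pairs with messenger RNAs to repress them. Blood cell lineages carry characteristic miRNAs. miR-142 is made throughout the haematopoietic lineages, miR-223 is a myeloid miRNA most abundant in neutrophils, and miR-150 is a miRNA of mature lymphocytes. miR-155 and miR-146a are induced by NF-kappaB signalling in activated immune cells, where miR-155 favours and miR-146a restrains inflammation, and both are also made in other cells such as endothelium. miR-146b is the paralog of miR-146a. A heart holds resident macrophages, other leukocytes and blood, so these miRNAs can be read there beside those of the muscle itself.

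The mature strands are shown because the seed defines each miRNA's family and because their likeness decides which reads can be told apart. The RefSeq table (GRCm38.p6) gave 11 mature sequences and 5 hairpins for the 6 genes. Mir150 yields miR-150-5p and miR-150-3p, of which only the latter was among these sequences, so the seed of miR-150-5p was not compared. Capitals mark the seed.
miR-142a-5p: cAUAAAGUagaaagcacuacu
miR-142a-3p: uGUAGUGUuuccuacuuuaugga
miR-223-3p: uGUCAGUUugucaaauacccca
miR-150-3p: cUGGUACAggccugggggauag
miR-155-5p: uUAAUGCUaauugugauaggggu
miR-146a-5p: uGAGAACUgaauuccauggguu
miR-146b-5p: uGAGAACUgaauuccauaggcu
The only seed that these strands shared with another of the 1738 mature entries in the table was GAGAACU, common to miR-146a-5p and miR-146b-5p and to no other entry. The complement of this seed, the site it would pair with in a messenger RNA, reads AGUUCUC, and that of miR-155-5p reads AGCAUUA. A gene's count adds up every read in the annotated hairpin, so the arm that the reads came from is not known.

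In the genome the 6 hairpins lie apart from one another. In the mm10 coordinates of GENCODE M21, Mir142 (chr11:87756864-87756927, plus strand) sits in an intron of the long non-coding gene Mir142hg. Mir155 (chr16:84714140-84714204, plus strand) lies in an exon of Mir155hg, its non-coding host gene. Mir223 (chrX:96242817-96242926, plus strand) overlaps an exon of the non-coding gene F630028O10Rik. Mir146b (chr19:46342762-46342870, plus strand) lies in an intron of the protein-coding gene Mfsd13a. Mir150 (chr7:45121757-45121821, plus strand) and Mir146 (chr11:43374397-43374461, minus strand) overlap no other annotated gene. Mir146 and Mir142 share chromosome 11 but no neighbourhood.

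Together the 6 genes had 9312 sense counts of 4196577 in replicate 1 and 8135 of 3801738 in replicate 2. That is a share of 0.222% (95% Wilson interval 0.217 to 0.226) and 0.214% (0.209 to 0.219), or 0.218% ± 0.0056 on average. The share was slightly higher in replicate 1, and this sum was given no test. Intervals and detection limits cover the counting error of reads only. PCR reads without molecular identifiers are not independent molecules, so the intervals can be too narrow even for that error. In a bulk sample, fewer cells of a type and less RNA per cell cannot be told apart.

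Most of these reads came from the miRNAs known for induction in activated cells. Mir155 had 4008 sense counts (955 CPM) in replicate 1 and 3069 (807 CPM) in replicate 2, a mean of 881 ± 105 CPM. It was the highest of the 6 in both libraries and stood at rank 80 and rank 78 of all miRNA genes. Mir146, the gene of miR-146a, had 3109 sense counts (741 CPM) and 2270 (597 CPM), a mean of 669 ± 102 CPM. Its ranks were 88 and 84, the next highest of the 6 in each library.

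The lineage markers followed at lower levels. Mir150 had 959 sense counts (229 CPM) in replicate 1 and 1156 (304 CPM) in replicate 2, a mean of 266 ± 53.4 CPM. Mir142 had 776 (185 CPM) and 1090 (287 CPM), a mean of 236 ± 72.0 CPM. Mir223 had 460 (110 CPM) and 548 (144 CPM), a mean of 127 ± 24.4 CPM. All of these were higher in replicate 2, whereas Mir155 and Mir146 were higher in replicate 1. Their ranks lay between 112 and 171 of all genes, of which 680 and 665 had at least 1 sense count in replicates 1 and 2.

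Mir146b was at the detection limit. It had 0 sense counts in replicate 1, which allows up to 0.715 CPM (3 counts), and 2 in replicate 2 (0.526 CPM). It was therefore the only one of the 6 genes under the minimum of 10 counts over both libraries, and it entered no test.

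**Figure D1:**
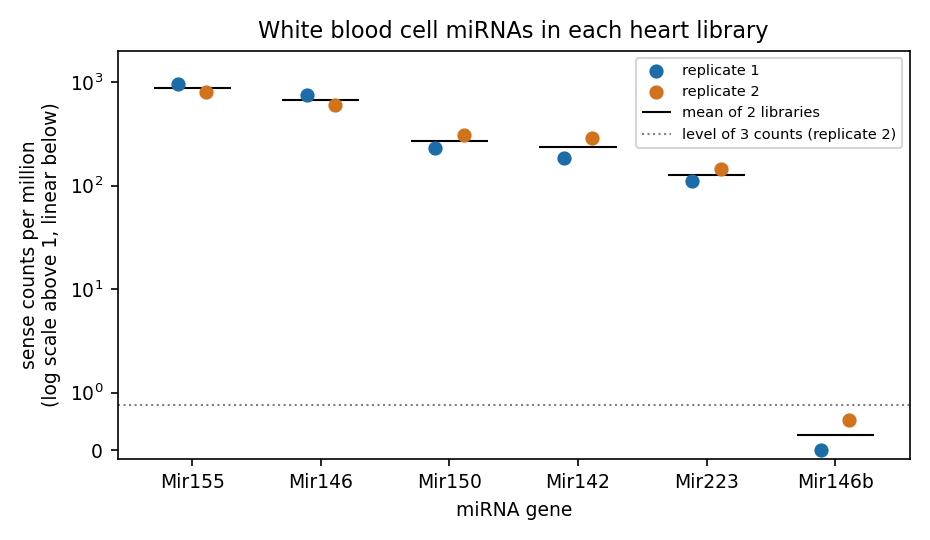
CPM (vertical axis, log scale above 1) of the 6 genes in replicate 1 and replicate 2, with a bar at the mean of the 2 libraries and a dotted line at the level of 3 counts in replicate 2. Mir155 and Mir146 lie between 597 and 955 CPM, Mir150, Mir142 and Mir223 between 110 and 304 CPM, and Mir146b below the line in both libraries.

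The paralogs Mir146 and Mir146b are the pair most alike in sequence and were among the least alike in level. Their hairpins are shown with the longest run that they share, of 21 bases, in capitals.
Mir146: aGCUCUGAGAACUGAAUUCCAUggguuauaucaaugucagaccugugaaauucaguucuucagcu
Mir146b: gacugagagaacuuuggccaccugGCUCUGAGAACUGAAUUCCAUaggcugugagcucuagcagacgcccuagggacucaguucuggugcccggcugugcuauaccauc
The mature 5p strands are both 22 bases long and are identical over the first 17. Counted from 1 at the 5′ end of miR-146a-5p, the differences are G18A and U21C. Mir146 had at least 1036-fold more reads than Mir146b in replicate 1, set against 3 counts in that library. In replicate 2 the ratio was 1135-fold (95% exact interval 314 to 9378). Of the 20-base windows of each hairpin, 2 occur in the other, so a read that covers nothing but such a window fits both genes and would not be counted for either. The part of such reads in the low count of Mir146b was not tested.

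Mir142 shares its locus with a hairpin on the opposite strand, Mir142b (chr11:87756841-87756955, minus strand). All 64 bases of the Mir142 hairpin are the complement of part of the 115 bases of Mir142b. In the sequences, capitals mark the mature arms of Mir142 and the mature strand of Mir142b.
Mir142: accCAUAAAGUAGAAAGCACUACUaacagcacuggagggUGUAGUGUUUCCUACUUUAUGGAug
Mir142b: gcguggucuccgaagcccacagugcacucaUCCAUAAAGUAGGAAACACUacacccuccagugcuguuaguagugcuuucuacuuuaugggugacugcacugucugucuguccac
The complement of miR-142b, 20 bases long, is contained whole in miR-142a-3p. Reads were found on the Mir142 strand only. Mir142b had 0 sense counts in both libraries, and the column of opposite-strand counts gave it 776 and 1090, the same reads that are sense counts of Mir142. Mir142 therefore had at least 259-fold and at least 363-fold more reads than Mir142b, set against 3 counts per library. Counted without regard to strand, Mir142 had 0 counts in both libraries, since its reads are then ambiguous. The other 5 genes had equal counts with and without regard to strand and 0 opposite-strand counts.

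**Figure D2:**
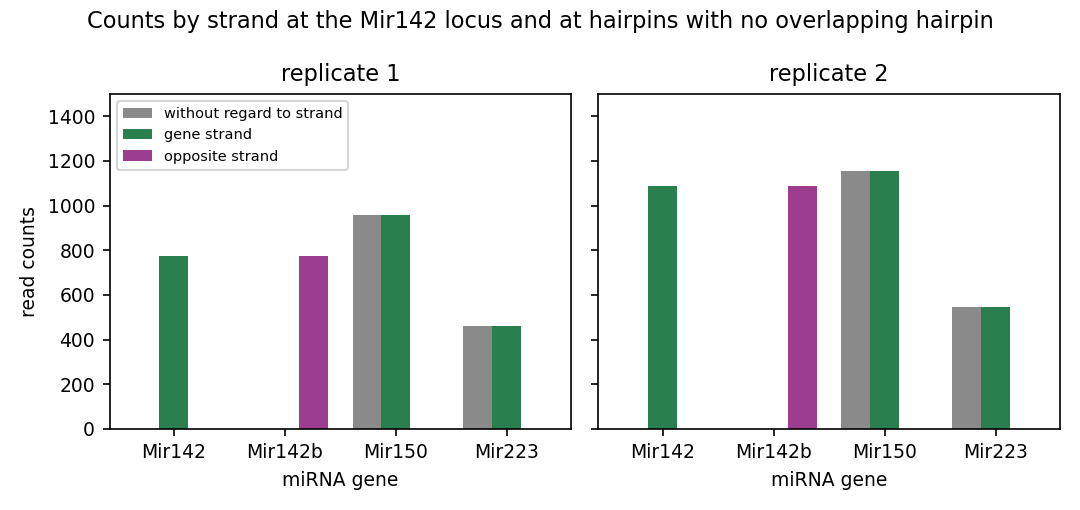
Read counts (vertical axis) without regard to strand, on the gene strand and on the opposite strand, for Mir142, the overlapping Mir142b, Mir150 and Mir223 in each library. The 776 and 1090 reads of Mir142 appear as opposite-strand reads of Mir142b and vanish from the counts that ignore strand, while Mir150 and Mir223 are equal in both columns.

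The order of the 6 levels was the same in both libraries. Reads of miRNA genes were compared without a length correction, since the mature strands of the 6 genes are 21 to 23 bases long, and a bias of the library protocol toward particular sequences was not tested. Mir155 exceeded Mir146 by 1.29-fold (95% exact interval 1.23 to 1.35) in replicate 1 and 1.35-fold (1.28 to 1.43) in replicate 2. The mean gap of 212 CPM is only just above the sum of the SDs, 206 CPM. Mir146 exceeded Mir150 by 3.24-fold (3.01 to 3.49) and 1.96-fold (1.83 to 2.11), a step that is clear in both libraries but of unequal size. Mir150 and Mir142 were not separated, with a mean gap of 30.5 CPM against 125 CPM for the sum of the SDs. Mir142 exceeded Mir223 by 1.69-fold (1.5 to 1.9) and 1.99-fold (1.79 to 2.21), with a mean gap of 109 CPM against 96.4 CPM.

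The make-up of this sum differed between the libraries. Mir155, Mir146 and Mir146b made up 76.4% of the reads of the 6 genes in replicate 1, with a Wilson interval of 75.6 to 77.3, and 65.7% (64.6 to 66.7) in replicate 2. Mir142, Mir223 and Mir150 made up the other 23.6% (22.7 to 24.4) and 34.3% (33.3 to 35.4). Within-library ratios do not depend on how the libraries are scaled. Among the 5 genes with reads in both libraries, 6 pairs set Mir155 or Mir146 against Mir150, Mir142 or Mir223. All of these ratios were lower in replicate 2 than in replicate 1. The pairs share genes and are not independent. Pairs of all tested genes were not compared, so such shifts may be as common among other genes. Fisher's exact test called 56.9% of all 441 tested genes different between the libraries, so differences beyond counting error were common.

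The widest of these shifts was in Mir146 over Mir142, at 4.01-fold (3.70 to 4.34) in replicate 1 and 2.08-fold (1.94 to 2.24) in replicate 2. Mir155 over Mir142 was 5.16-fold (4.78 to 5.58) and 2.82-fold (2.63 to 3.02). In contrast, Mir150 over Mir223 was 2.08-fold (1.86 to 2.33) and 2.11-fold (1.90 to 2.34). On the log2 scale the SD over the libraries was 0.01 for Mir150 over Mir223, 0.05 for Mir155 over Mir146, and from 0.45 to 0.67 for the 6 pairs across the 2 sets. This grouping was described after the values were seen and was given no test.

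**Figure D3:**
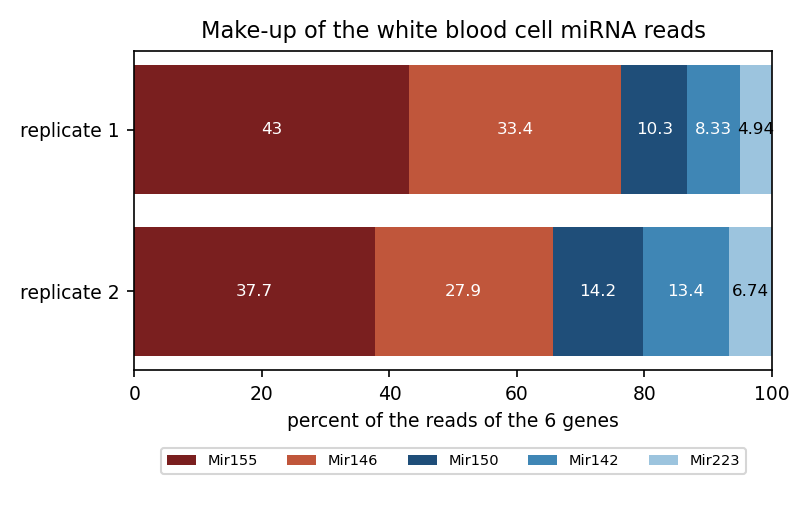
Percent of the reads of the 6 genes (horizontal axis) taken by each gene in replicate 1 and replicate 2; Mir146b, at 0 and 2 reads, is too small to draw. Mir155 goes from 43.0% to 37.7% and Mir146 from 33.4% to 27.9%, while Mir150, Mir142 and Mir223 each take a larger part in replicate 2.

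Set against the whole library, the lineage markers were higher in replicate 2. Mir142 was 1.55-fold higher there (95% exact interval 1.41 to 1.70), with a log2 ratio of 0.63 (adjusted p = 2.2e-20, Fisher's exact test). Mir150 was 1.33-fold higher (1.22 to 1.45), a log2 ratio of 0.41 (adjusted p = 2.0e-10, Fisher's exact test). Mir223 was 1.32-fold higher (1.16 to 1.49), a log2 ratio of 0.39 (adjusted p = 3.7e-05, Fisher's exact test). Mir155 and Mir146 went the other way, at 0.845 times (0.806 to 0.886) and 0.806 times (0.763 to 0.851) their level in replicate 1. Their log2 ratios were -0.24 and -0.31 (adjusted p = 7.2e-12 and 1.6e-14, two-sided Fisher's exact tests with Benjamini-Hochberg adjustment over all tested genes). These tests compare 2 libraries by counting error alone and say nothing about a condition.

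Such differences were common in these libraries. All 5 tested genes of the 6 passed the threshold of 0.05, as did 56.9% of the 441 genes tested. Of the 5, 3 were higher in replicate 2, beside 20.4% of all tested genes, and 2 were lower, beside 36.5%. The median log2 ratio of all tested genes was -0.26, so Mir155 and Mir146 lay near the middle of all genes and the lineage markers above it. With TMM scaling (trimmed mean of M-values), which raised log2 ratios by 0.24 before the pseudocount and by less for genes of low level, Mir142, Mir150 and Mir223 were still called higher in replicate 2, at 0.87, 0.65 and 0.63. Mir155 was then at 0.00 and Mir146 at -0.07, and neither was called. Under this scaling 54.4% of all genes were called, 28.1% higher and 26.3% lower in replicate 2. edgeR's exact test, which adds a spread beyond counting error estimated from the same 2 libraries (a coefficient of variation of 0.378), called 0 of the 5 genes. Its lowest unadjusted p among them was 0.27, so 0 of the 5 were under 0.05 unadjusted, and of all 441 genes it called 2 adjusted and 25 unadjusted.

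**Figure D4:**
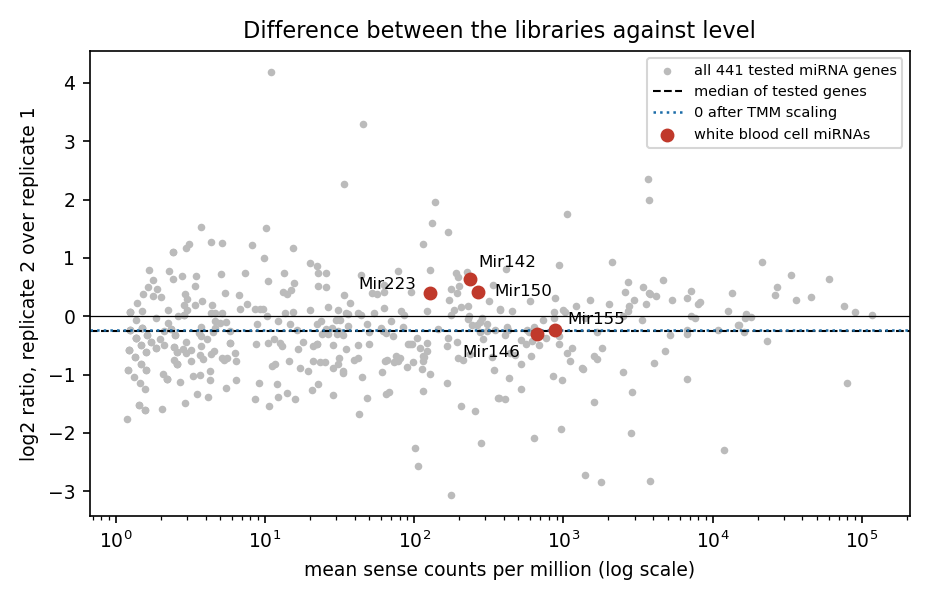
Log2 ratio of replicate 2 over replicate 1 (vertical axis) against mean CPM (horizontal axis, log scale) for the 441 tested miRNA genes in grey and 5 of the 6 genes in red. The dashed and dotted lines mark the median of all tested genes at -0.26 and the level that TMM scaling sets to 0; Mir142, Mir150 and Mir223 lie above both, and Mir155 and Mir146 lie on or beside them.

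Other miRNAs tied to immune cells were compared as a list of 10 genes, many of which are also made outside the blood. All 10 were tested. Fisher's exact test called 7 of them higher and 2 lower in replicate 2, beside 20.4% and 36.5% of all tested genes. The median log2 ratio of the list was 0.46, beside -0.26 over all tested genes. Mir342, in an intron of Evl and known from B cells and myeloid differentiation, had 2154 and 3251 CPM. It alone was 0.971 times and 1.52 times the sum of the 6 genes, and its log2 ratio of 0.59 was close to that of Mir142. Mir511, in an intron of the macrophage mannose receptor gene Mrc1, had 20 and 59 counts (4.77 and 15.5 CPM), a log2 ratio of 1.52 (adjusted p = 3.5e-06, Fisher's exact test).

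The miR-181 genes, which act in lymphocyte development and in other tissues, were mixed. Reads that fit more than 1 gene were counted for none, so each level holds only reads placed at a single gene. Mir181a-1 had 152 and 241 CPM and its neighbour Mir181b-1 had 18.6 and 27.1 CPM, both higher in replicate 2. Mir181b-2 had 2663 and 3242 CPM, also higher there, whereas Mir181a-2 had 39.1 and 23.4 CPM and was lower. Mir132 and Mir212, which share a transcript and are induced in activated myeloid cells and in neurons, moved apart, with 651 and 469 CPM for Mir132 and 15.7 and 29.2 CPM for Mir212. Mir21a, a broadly expressed and inflammation-induced miRNA, had 11680 and 15435 CPM and was higher in replicate 2. Mir147, known from Toll-like receptor signalling in macrophages, had 11 and 8 counts and did not pass the test (adjusted p = 0.74, Fisher's exact test).

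The red blood cell miRNAs were read as a further list, and their ratios were not tested against those of the white blood cell genes. Mir451a had 234 CPM in both libraries, with a log2 ratio of 0.00, or 0.24 with TMM scaling. Mir144, which lies beside it, had 117 and 63.7 CPM, and Mir486 had 142 and 103 CPM, and Fisher's exact test called both lower in replicate 2. The 3 red blood cell genes summed to 493 and 400 CPM. The 6 white blood cell genes exceeded that sum by 4.50-fold and 5.34-fold. Most of this excess lay in Mir155, Mir146 and Mir146b, with 1696 and 1405 CPM together. The lineage markers Mir142, Mir223 and Mir150 summed to 523 and 735 CPM, much nearer to the red blood cell sum. Reads that fit several genes are missing from both sums, and the red blood cell hairpins were not searched for shared sequence.

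The list sums of the heart's own markers were higher than the sum of the white blood cell genes and moved in both directions. The heart muscle miRNAs Mir208a, Mir208b and Mir499 summed to 13054 and 8858 CPM, which is 5.88 and 4.14 times the sum of the 6 genes, and all 3 were lower in replicate 2. The endothelial Mir126a had 49.2 and 23.1 times that sum and was lower in replicate 2, whereas the smooth muscle genes Mir143 and Mir145a had 21.9 and 37.1 times and were higher. Among miRNAs foreign to heart, Mir124a-1, Mir124a-2, Mir124a-3 and Mir9-2 had 0 counts in both libraries. Multi-mapped reads, 38.1% and 42.3% of all reads in replicates 1 and 2, were counted for no gene. Genes with like copies can lose reads in this way, so these zeros do not show absence. Mir9-1 had 0 and 2 counts and Mir9-3 had 1 and 82, and the liver miRNA Mir122 had 309 and 105 CPM. The part of these shifts in the ratios of the white blood cell genes was not tested.

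**Figure D5:**
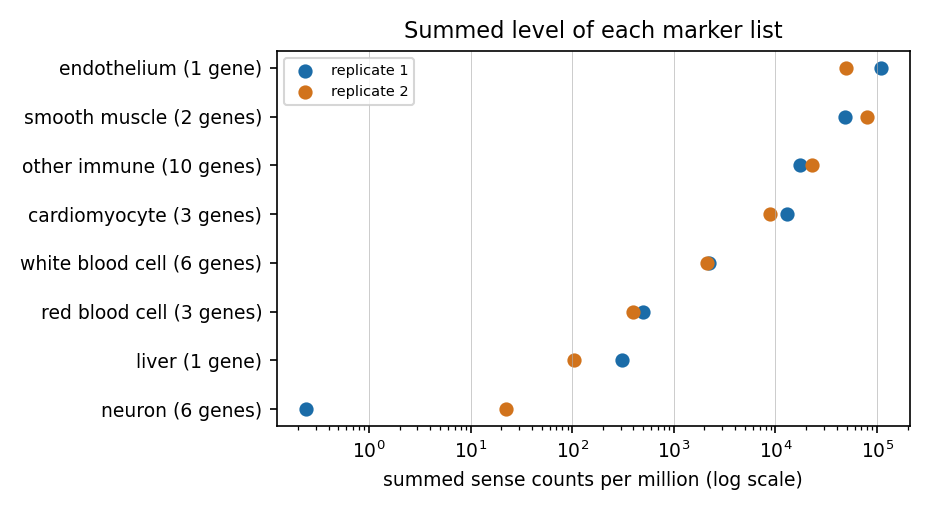
Summed CPM (horizontal axis, log scale) of each list of marker miRNAs in replicate 1 and replicate 2. The 6 white blood cell genes, at 2219 and 2140 CPM, lie between the heart muscle genes and the red blood cell genes, and their points nearly coincide.

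The tested genes with levels most like those of each gene were found by distance over log2(CPM + 1) in the 2 libraries, a likeness of level that 2 libraries cannot carry further. For Mir142 they were Mir200c, at 193 and 293 CPM, and Mir708, at 168 and 283 CPM. Mir150 was nearest to Mir200c and Mir142, and Mir223 to Mir187, at 118 and 125 CPM, and Mir5099, at 93.6 and 162 CPM. Mir155 was nearest to Mir185, at 1052 and 829 CPM, and Mir501, at 870 and 849 CPM. Mir146 was nearest to Mir18, at 729 and 587 CPM, and Mir337, at 677 and 596 CPM. Mir146b, untested itself, was nearest to Mir365-2 and Mir6946, both at 1.19 and 1.32 CPM.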

How the data were processed

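Both microRNA sequencing libraries of neonatal mouse heart were analysed. The authors deposited raw read counts per miRNA gene, aligned to mm10 with GENCODE M21, per the deposited description files; the aligner is not given in the sources used here. The tables give counts without regard to strand, on the gene's strand and on the opposite strand; this order was read from overlapping hairpins. Reads totalled 9591115 and 9293203, of which sense counts made up 43.8% and 40.9%. Lines that name no gene were left out of library sizes: multi-mapped reads (38.1% and 42.3%), unmapped reads (14.1% and 13.1%), reads outside miRNA genes (4.01% and 3.70%) and, when strand is ignored, ambiguous reads (11.4% and 8.25%). All 2202 gene IDs matched GENCODE M21. One read was worth 0.238 and 0.263 CPM, and 3 counts 0.715 and 0.789 CPM. Log2 ratios, replicate 2 over replicate 1, use log2(CPM + 1).

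Genes with 10 or more sense counts over both libraries were compared by two-sided Fisher's exact tests (scipy 1.17.1) with Benjamini-Hochberg adjustment over all 441 of them. Alternatives used edgeR 4.0.16 and DESeq2 1.42.0 (R 4.3.3). Fisher's test was tried on counts simulated with counting error alone, and edgeR's estimate of spread on counts with a known spread. The former lacks the spread seen between these libraries, so it does not bear on the calls made here. Loss of CAST/EiJ reads in alignment was not tested. The genes, lists and naming rule (all 6 genes, the list genes, overlapping hairpins and the nearest 2 genes) were chosen with earlier results of these data known.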

Additional observations from a re-analysis of the deposited data

How the results depend on the processing

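Of the ratios between the libraries, those of Mir142, Mir150 and Mir223 kept their direction and adjusted p under 0.05 in Fisher's exact test with TMM scaling, DESeq2 size factors, no minimum count and, where it applies, another pseudocount or strand column. Those of Mir155 and Mir146 depended on the scaling. Mir155 came to 0.00 with TMM scaling and 0.07 with DESeq2 size factors, and Mir146 to -0.07 and 0.00, none of them called. The number of the 5 genes called was 3 with TMM scaling, beside 54.4% of all tested genes. The share of all genes called with DESeq2 size factors was not counted. In edgeR's exact test 0 of the 5 were called, beside 2 of all 441 genes. The log2 ratios of that test were 0.88 for Mir142, 0.66 for Mir150, 0.64 for Mir223, 0.00 for Mir155 and -0.07 for Mir146. The share of the 6 genes was 0.254% without regard to strand, where Mir142 has no counts and the library total is smaller, and 0.092% of all reads in the tables. It was 0.214% or 0.222% with 1 library left out. The log2 ratio of Mir223 over Mir146b, 6.68, became 7.0 without regard to strand and 3.73 with a pseudocount of 10 CPM, and that of Mir146 over Mir146b, 9.07, became 6.04 with that pseudocount, as follows from adding it to a level near 0. That of Mir146 over Mir150, 1.33, was 0.97 without replicate 1 and 1.69 without replicate 2. Mir142 has no value without regard to strand. No paired analysis was possible because there is a single group. Depth limits statements on Mir146b and Mir142b.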
